A study of Mus musculus with 11 samples.

Results

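Hox genes are the homeobox genes that mouse chromosomes carry in the clusters Hoxa, Hoxb, Hoxc and Hoxd. All probes whose annotated symbol was Hoxa, Hoxb, Hoxc or Hoxd followed by digits only were taken, which gave 52 of the 46627 probes of the array and 37 of its 17711 named genes. The Hoxa cluster had 9 genes on 17 probes, Hoxb 10 genes on 13 probes, Hoxc 9 genes on 12 probes and Hoxd 9 genes on 10 probes.

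RNA of C57BL/6 mouse cells was hybridized to Illumina BeadChip arrays in 3 measured groups. Induced pluripotent stem cells (iPSC, somatic cells returned to a state like that of the early embryo) grown on feeder cells gave 3 arrays, and the submitters detached these colonies from the layer mechanically. Feeder-free iPSC, kept without a layer in medium with 1000 units per ml of LIF (leukemia inhibitory factor, which holds mouse stem cells undifferentiated) and 15% serum, gave 3 arrays. Feeder cells alone, embryonic fibroblasts that express LIF, gave 2 arrays. The fourth group exists only as arithmetic, as 3 in silico mixtures of 92% feeder-free iPSC signal and 8% feeder signal. The labels call the feeder arrays MSTO whereas the culture notes speak of SNL76/7 cells treated with mitomycin C. How the named cells relate is not stated, so levels relative to feeder cells and feeder shares assume that the layer was like the arrayed feeder cells. Replicates are numbered without saying whether they were separate cultures, so p-values measure only the spread between these arrays, which may be technical.

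Hox proteins are transcription factors that give cells along the head-to-tail axis of the embryo their positional identity. Within a cluster the genes lie in the order in which they are used: low paralog numbers in the hindbrain and neck, high numbers in the trunk, tail and distal limbs. Pluripotent cells hold the clusters largely silent under Polycomb proteins, while fibroblasts keep a set of active Hox genes that reflects where in the body they came from.

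Promoters are shown for 4 neighbours of the Hoxa cluster because they behaved in different ways in the same cells: Hoxa2, Hoxa5 and Hoxa7 were detected on both feeder arrays, whereas Hoxa6, which lies between Hoxa5 and Hoxa7, was detected on no array. The sequences are RefSeq promoters of build GRCm38.p6, each of 300 bases around the gene's start, 5′ to 3′ on the minus strand. They lie at chr6:52164782-52165081 (Hoxa2), chr6:52204538-52204837 (Hoxa5), chr6:52208623-52208922 (Hoxa6) and chr6:52218524-52218823 (Hoxa7). Capitals mark the CCAAT box, a common promoter element, read as CCAAT on the printed strand or ATTGG for the other strand.
Hoxa2: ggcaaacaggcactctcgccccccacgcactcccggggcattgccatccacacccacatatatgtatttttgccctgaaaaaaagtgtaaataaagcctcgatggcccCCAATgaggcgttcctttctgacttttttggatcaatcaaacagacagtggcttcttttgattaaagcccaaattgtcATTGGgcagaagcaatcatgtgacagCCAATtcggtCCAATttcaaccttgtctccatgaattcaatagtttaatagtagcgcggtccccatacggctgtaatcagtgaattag
Hoxa5: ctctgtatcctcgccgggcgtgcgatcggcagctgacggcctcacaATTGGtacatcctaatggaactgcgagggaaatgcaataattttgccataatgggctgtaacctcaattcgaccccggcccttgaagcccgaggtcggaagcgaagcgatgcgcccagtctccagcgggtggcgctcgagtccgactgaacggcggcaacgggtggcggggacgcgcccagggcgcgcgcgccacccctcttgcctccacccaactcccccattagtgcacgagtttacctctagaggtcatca
Hoxa6: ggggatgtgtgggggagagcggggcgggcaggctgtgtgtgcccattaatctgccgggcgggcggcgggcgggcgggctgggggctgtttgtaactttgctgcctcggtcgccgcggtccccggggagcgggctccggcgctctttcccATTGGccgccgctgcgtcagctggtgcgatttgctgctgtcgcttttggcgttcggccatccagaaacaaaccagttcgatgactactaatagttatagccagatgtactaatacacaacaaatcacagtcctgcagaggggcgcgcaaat
Hoxa7: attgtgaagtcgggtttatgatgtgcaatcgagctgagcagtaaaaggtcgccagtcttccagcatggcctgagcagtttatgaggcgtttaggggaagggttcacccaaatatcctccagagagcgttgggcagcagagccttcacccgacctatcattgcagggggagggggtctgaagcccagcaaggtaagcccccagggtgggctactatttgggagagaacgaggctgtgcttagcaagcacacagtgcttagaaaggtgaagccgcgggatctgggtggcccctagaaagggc
The Hoxa2 promoter held 4 CCAAT boxes, those of Hoxa5 and Hoxa6 held 1 each, and the Hoxa7 window held none. Over all 32851 promoters of the table, searched on both strands, 37.4% held at least 1. CpG dinucleotides numbered 9 in the Hoxa2 window, 29 in that of Hoxa5, 26 in that of Hoxa6 and 9 in that of Hoxa7, against a median of 7 over all promoters and an upper quartile of 20. The CpG-dense pair thus included a gene detected on all 8 arrays and a gene detected on none. Promoters were at hand for 21 of the 37 genes, and the letters alone say nothing of which factor binds there.

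Detection divided the clusters. A probe counted as detected on an array when its deposited detection score was over 0.95. Of the 37 Hox genes, 12 (32.4%) were detected on every array of iPSC on feeder by any of their probes, 9 (24.3%) on every feeder-free array and 15 (40.5%) on both feeder arrays. Over all named genes the same rule held for 53.1% in iPSC on feeder, 52.2% in feeder-free iPSC and 43.9% in feeder cells. No array detected the other 20 genes. They were Hoxa3, Hoxa4, Hoxa6, Hoxa9, Hoxa10 and Hoxa11; Hoxb8 and Hoxb9; Hoxc5, Hoxc10, Hoxc11 and Hoxc12; and Hoxd1, Hoxd3, Hoxd4, Hoxd8, Hoxd9, Hoxd10, Hoxd12 and Hoxd13. Their 28 probes lay between 4.35 and 5.19 on the log2 scale on all 8 arrays, so they give no level.

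Read by paralog number, 5 of the 11 genes numbered 1 to 4 were detected on both feeder arrays, 7 of the 11 numbered 5 to 8, and 3 of the 15 numbered 9 to 13. Among the posterior genes, both feeder arrays detected Hoxc9, Hoxc13 and Hoxd11. Feeder-free iPSC had 4, 5 and 0 genes in the same classes, and iPSC on feeder had 4, 6 and 2. Hoxb was the cluster most often detected, with 8 of 10 genes detected on every array of at least 1 group, against 3 of 9 in Hoxa, 5 of 9 in Hoxc and 1 of 9 in Hoxd.

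In all, 17 Hox genes entered the tests, since a probe was tested only if every array of at least 1 group detected it. Of these 17, 5 passed through the feeder arrays alone (Hoxa2, Hoxb6, Hoxc4, Hoxc13 and Hoxd11), so that their difference from iPSC is partly set by the filter, and Hoxb13 passed through iPSC on feeder alone. Levels below are log2 of background-corrected, quantile-normalized signal, on which 16 units were added to every signal, so that differences of dim genes are understated. Differences come from a limma fit over all 10058 genes that passed, and a gene is said to rise or fall when its Benjamini-Hochberg adjusted p is under 0.05. In these bulk samples, fewer cells of a type and less RNA per cell cannot be told apart.

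The arrays measured 13581 to 19043 detected probes each, and the median detected probe was 2.56 to 3.2 times as bright as the median undetected one. All 8 iPSC marker genes measured were detected on every iPSC array. Among 9 fibroblast markers, Col1a1, Thy1, Pdgfrb, Dcn and Lox were detected in feeder cells, and Col1a2, Col3a1, Postn and Lum on no array. Col1a1, Thy1 and Dcn were also detected on all 3 feeder-free arrays, and Lox on 2. Dcn averaged 8.91 on feeder, 6.49 feeder-free and 9.27 in feeder cells. The summed fibroblast marker signal was 2118 to 2293 units in iPSC on feeder, 756 to 782 in feeder-free iPSC and 13183 to 15077 in feeder cells. Of 6 mesoderm and streak markers, 2 were detected on every array of each iPSC group, and their sums were 233 to 258 units on feeder and 231 to 257 units feeder-free. Of 6 neural markers, 2 were detected on every on-feeder array and 3 on every feeder-free array, with sums of 978 to 1255 units on feeder and 1237 to 1418 units feeder-free. Of 5 primitive and definitive endoderm markers, 4 were detected on every array of each iPSC group, with sums of 1348 to 1762 units on feeder and 1893 to 1999 units feeder-free.

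Between iPSC on feeder and feeder-free iPSC, 7 of 17 tested Hox genes rose on feeder (41.2%) and 0 fell, where 18.2% of all genes tested passed, 9.86% upward and 8.30% downward. They were Hoxa5, Hoxa7, Hoxb2, Hoxb5, Hoxb7, Hoxb13 and Hoxc6, and at an unadjusted p under 0.05 in limma, too, 7 were higher and 0 lower. Hoxb13 had passed the filter through iPSC on feeder alone, so its direction was set by the filter. Of the 11 genes that passed the filter through several groups, 6 rose and 0 fell. Among these 6, Hoxb5 and Hoxc6 did not pass through the feeder-free arrays, so the filter may have favoured their direction too. The median log2 difference was 0.28 over the 17 genes, 0.03 over all 37 Hox genes with no filter, and -0.02 over all genes tested. The arrays of these iPSC groups did not overlap for 8 of the 17 genes, against 35.9% of all genes tested. All but Hoxb13 were also detected in feeder cells. The summed fibroblast markers moved the same way, and their part in the Hox differences was not tested.

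Hoxa5, a patterning gene of lung, trachea and neck skeleton, had levels of 7.11, 6.79 and 6.93 in iPSC on feeder, 5.37, 5.23 and 5.18 in feeder-free iPSC, and 11.45 and 11.51 in feeder cells. Every on-feeder array lay above every feeder-free array and far below both feeder arrays. It rose by 1.68 on feeder (SE 0.11, adjusted p = 5.78e-07, limma), a 3.20-fold difference. Hoxa5 was the Hox gene furthest apart between feeder-free iPSC and feeder cells, at -6.21 (SE 0.12, adjusted p = 1.82e-12), or 74.3-fold.

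Hoxa7, which acts in the trunk, showed 5.84, 5.55 and 5.50 on feeder, 5.06, 5.32 and 5.19 feeder-free, and 9.33 and 9.44 in feeder cells. Its on-feeder arrays again stood above all feeder-free ones, by a narrower margin. It rose by 0.44 on feeder (SE 0.12, adjusted p = 0.0227) and was lower in feeder-free iPSC than feeder cells by -4.19 (SE 0.13, adjusted p = 3.69e-11). The other probe of Hoxa7 read 5.07, 5.08 and 5.32 on feeder, 4.90, 4.87 and 4.61 feeder-free, and 7.83 and 7.95 in feeder cells. Tested among all 18144 probes it differed by 0.36 on feeder (SE 0.12, adjusted p = 0.0657) and did not pass.

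Hoxa2, the selector gene of the second pharyngeal arch, was undetected on all 6 iPSC arrays, with 4.46, 4.62 and 4.47 on feeder and 4.40, 4.45 and 4.38 feeder-free. Both feeder arrays detected it, at 7.87 and 7.92. Relative to feeder cells it was lower in feeder-free iPSC by at least 7.43-fold (adjusted p = 2.65e-11), where the bound sets iPSC arrays at the dimmest detected probe of each array.

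**Figure D1:**
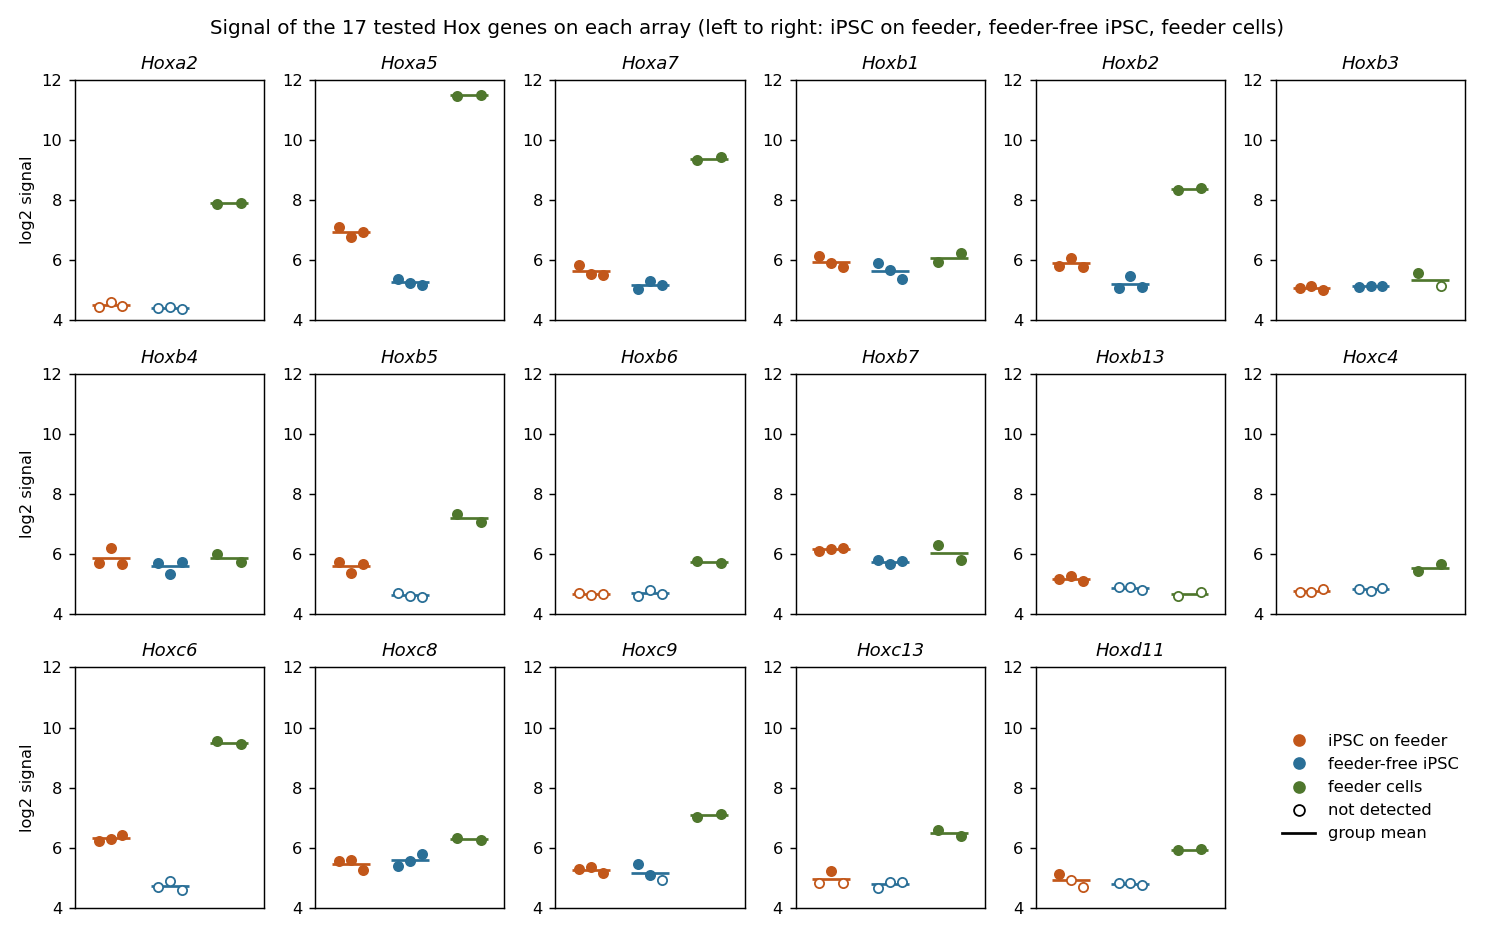
Log2 signal of the 17 tested Hox genes on each of the 8 arrays, 1 panel per gene, with iPSC on feeder at the left of a panel, feeder-free iPSC in the middle and feeder cells at the right. Filled points were detected, open points were not, and lines are group means; Hoxa2, Hoxa5, Hoxa7, Hoxb2, Hoxb5 and Hoxc6 show feeder arrays clear of all iPSC arrays, whereas Hoxb4 and Hoxb7 show the groups close together.

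In the Hoxb cluster, Hoxb2, a regulator of hindbrain and facial nerve development, had 5.82, 6.08 and 5.78 on feeder, 5.07, 5.47 and 5.11 feeder-free, and 8.34 and 8.40 in feeder cells. Its 3 groups of arrays did not overlap. It rose by 0.68 on feeder (SE 0.13, adjusted p = 0.0033) and was lower in feeder-free iPSC than feeder cells by -3.16 (SE 0.14, adjusted p = 8.53e-10).

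Hoxb5, which guides neural crest cells to the gut, was detected on every array of iPSC on feeder at 5.75, 5.36 and 5.68 and on both feeder arrays at 7.32 and 7.07. No feeder-free array detected it, at 4.70, 4.62 and 4.58. It was therefore at least 1.51-fold higher on feeder than feeder-free (adjusted p = 0.000205) and lower in feeder-free iPSC by at least 4.57-fold relative to feeder cells (adjusted p = 3.60e-09).

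Hoxb7 was detected on all 8 arrays, with 6.09, 6.18 and 6.20 on feeder, 5.79, 5.67 and 5.78 feeder-free, and 6.30 and 5.80 in feeder cells. The on-feeder arrays stood above the feeder-free ones and between the feeder arrays. It rose by 0.41 on feeder (SE 0.12, adjusted p = 0.0390), and its other probe was undetected on all arrays.

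Hoxb13, a gene of prostate and tail that lies at a distance from the rest of its cluster, was the only Hox gene detected in iPSC on feeder and in neither other group. Its levels were 5.18, 5.26 and 5.10 on feeder, 4.90, 4.91 and 4.82 feeder-free, and 4.60 and 4.73 in feeder cells. It was at least 1.13-fold higher on feeder than feeder-free (adjusted p = 0.0458), and its other probe was undetected on all arrays.

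The calls of Hoxa7, Hoxb7 and Hoxb13 were near the threshold. Hoxa7 lost its call without feeder-free array 1 (adjusted p = 0.0736), feeder-free array 3 (0.0642) or on-feeder array 1 (0.0988), Hoxb7 without any one of the 6 iPSC arrays (0.0641 to 0.128) and Hoxb13 without any one of the 8 arrays (0.0519 to 0.140), which left 4 Hox genes without feeder-free array 1, feeder-free array 3 or on-feeder array 1. The same 3 genes lost it under median scaling (adjusted p of 0.156 for Hoxa7, 0.255 for Hoxb7 and 0.414 for Hoxb13), where their fitted differences were no smaller (0.54, 0.48 and 0.34), and all genes split into 309 higher and 90 lower, in place of 992 higher and 835 lower.

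The other tested Hoxb genes differed little between the iPSC groups. Hoxb1, which specifies facial motor neurons in the hindbrain, had 6.15, 5.91 and 5.78 on feeder, 5.89, 5.68 and 5.39 feeder-free, and 5.93 and 6.24 in feeder cells. The iPSC groups overlapped, at a difference of 0.29 (SE 0.15, adjusted p = 0.196). Hoxb3 read 5.08, 5.15 and 5.0 on feeder, 5.12, 5.16 and 5.15 feeder-free, and 5.59 and 5.13 in feeder cells, where only the first array detected it. The other Hoxb3 probe was undetected on all arrays. Hoxb4, known for expanding blood stem cells when overexpressed, read 5.70, 6.22 and 5.69 on feeder, 5.70, 5.33 and 5.74 feeder-free, and 6.01 and 5.73 in feeder cells. These 3 genes were detected on all 6 iPSC arrays, so part of the anterior Hoxb cluster gave signal in iPSC with and without a layer. For Hoxb3 that signal lay close to the dimmest detected probe of each iPSC array (4.92 to 5.05). Hoxb6 was undetected on all 6 iPSC arrays, with 4.71, 4.64 and 4.66 on feeder and 4.62, 4.82 and 4.68 feeder-free, and detected at 5.78 and 5.72 in feeder cells, which puts feeder-free iPSC at least 1.68-fold below feeder cells (adjusted p = 1.64e-06). On the feeder arrays the dimmest detected probe lay higher, at 5.39 and 5.58, and that gap is part of this bound.

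In the Hoxc cluster, Hoxc6, a gene of the thoracic region and mammary gland, had 6.24, 6.28 and 6.43 on feeder, 4.70, 4.90 and 4.61 feeder-free, where no array detected it, and 9.54 and 9.46 in feeder cells. The 3 groups were widely apart. It was at least 2.49-fold higher on feeder than feeder-free (adjusted p = 8.57e-07) and feeder-free iPSC lay at least 22.6-fold below feeder cells (adjusted p = 6.94e-12). The other kept Hoxc6 probe did not follow, with 5.28, 5.01 and 4.91 on feeder, 5.26, 5.15 and 5.33 feeder-free, and 5.57 and 6.31 in feeder cells. That probe differed by -0.18 between the iPSC groups (SE 0.17, adjusted p = 0.518 among 18144 probes) and was detected on all 3 feeder-free arrays.

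Hoxc9, which sets thoracic motor neuron identity, had 5.28, 5.38 and 5.16 on feeder, 5.46, 5.10 and 4.93 feeder-free, and 7.02 and 7.13 in feeder cells. Hoxc8, which acts in the spinal cord and ribs, read 5.57, 5.58 and 5.26 on feeder, 5.39, 5.55 and 5.80 feeder-free, and 6.32 and 6.27 in feeder cells. In both, the iPSC groups overlapped and the feeder arrays lay above all of them. The other Hoxc8 probe was undetected on all arrays, with means of 4.51 on feeder, 4.55 feeder-free and 4.57 in feeder cells. Hoxc13, a gene of hair and nail, read 4.83, 5.23 and 4.82 on feeder, of which only the second was detected, 4.68, 4.85 and 4.88 feeder-free, and 6.59 and 6.40 in feeder cells. Hoxc4 was undetected on all 6 iPSC arrays, with 4.74, 4.75 and 4.83 on feeder and 4.84, 4.76 and 4.88 feeder-free, and read 5.43 and 5.66 in feeder cells. The other Hoxc4 probe was undetected on all arrays. The Hoxd cluster had a single tested gene, Hoxd11, which acts in forearm and kidney. It read 5.13, 4.93 and 4.69 on feeder, of which only the first was detected, 4.83, 4.82 and 4.77 feeder-free, and 5.92 and 5.96 in feeder cells.

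Between feeder-free iPSC and feeder cells, 13 of 17 tested Hox genes were lower in feeder-free iPSC (76.5%) and 0 were higher, where 81.8% of all genes tested passed, 41.0% downward and 40.8% upward. At an unadjusted p under 0.05 in limma, 14 were lower and 0 higher. Arrays did not overlap for 15 of the 17, against 87.8% of all genes. The share of Hox genes that passed is thus close to that of all genes. Hoxa2, Hoxb6, Hoxc4, Hoxc13 and Hoxd11 had passed the filter through the feeder arrays alone, so their direction was set by the filter. Of the 11 genes that passed it through several groups, 8 fell and 0 rose: 2 of 2 in Hoxa, 3 of 6 in Hoxb and 3 of 3 in Hoxc. Among these 8, Hoxb5, Hoxc6 and Hoxc9 did not pass through the feeder-free arrays, so the filter may have favoured their direction too. The median log2 difference was -1.13 over the 17, -0.23 over all 37 Hox genes with no filter, and -0.01 over all genes tested. Beyond the genes above, Hoxc9 differed by -1.91 (SE 0.15, adjusted p = 1.33e-07) and Hoxc8 by -0.72 (SE 0.14, adjusted p = 0.000535). Hoxc13 was at least 2.82-fold lower (adjusted p = 2.54e-07), Hoxd11 at least 1.92-fold (adjusted p = 4.58e-06) and Hoxc4 at least 1.46-fold (adjusted p = 6.75e-05). The dimmest detected probe lay at 5.39 and 5.58 on the feeder arrays, but at 4.94 to 5.05 on the feeder-free arrays. Hoxc4 in feeder cells, at 5.43 and 5.66, lay just above it, so its bound is largely the gap between these levels. That gap is also part of the other bounds.

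Hoxb1 was lower by -0.43 (SE 0.16, adjusted p = 0.0281), but its direction turned under median scaling, to 0.19 (adjusted p = 0.505), which is -0.09 relative to the median of all genes. It also lost its call without feeder array 2 (adjusted p = 0.224), feeder-free array 2 (0.0517) or feeder-free array 3 (0.108). Hoxb3 at -0.22, Hoxb4 at -0.28, Hoxb7 at -0.30 and Hoxb13 at 0.22 did not pass (adjusted p from 0.0603 to 0.169), although without feeder array 2 Hoxb3 (-0.47, adjusted p = 0.0091) and Hoxb7 (-0.56, adjusted p = 0.0034) did. Median scaling placed the median of all genes at 0.28 and split them into 4208 higher and 2368 lower in feeder-free iPSC, in place of 4104 and 4124. It called 10 Hox genes, all lower, since Hoxc8 (-0.10, adjusted p = 0.685) and Hoxc4 (-0.38, adjusted p = 0.0919) lost their calls beside Hoxb1.

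**Figure D2:**
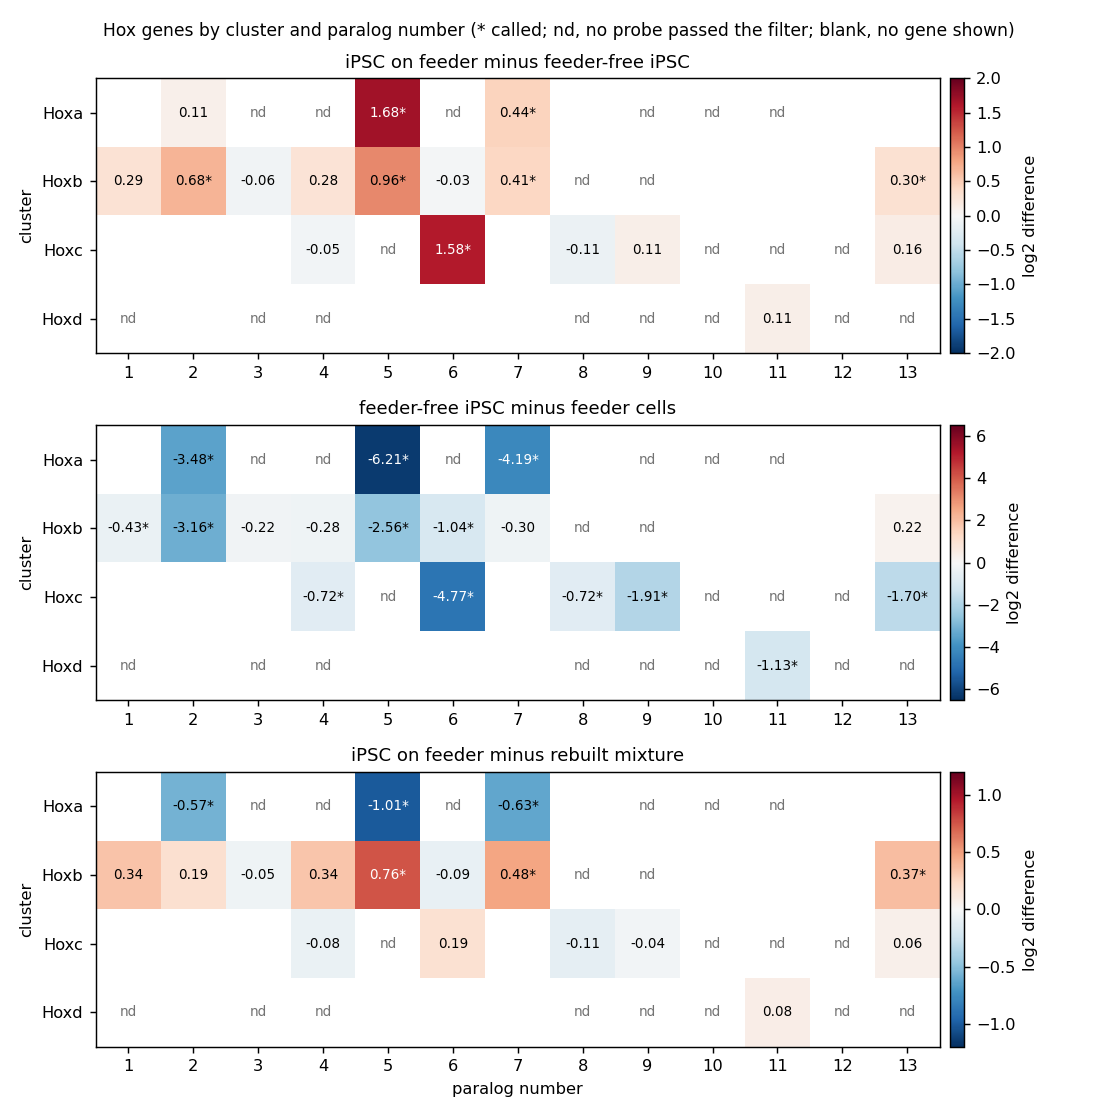
Log2 differences of Hox genes laid out by cluster (rows) and paralog number (columns) for 3 comparisons, with red for higher and blue for lower in the first-named group; an asterisk marks adjusted p under 0.05, nd a gene with no probe past the filter, and each panel has its own colour scale. Against feeder cells the deepest blue stands at Hoxa5, Hoxc6 and Hoxa7, and against the rebuilt mixture the Hoxa cells are blue and the called Hoxb cells red; Hoxb1 turned positive against feeder cells under median scaling.

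Between iPSC on feeder and feeder cells, 12 of 17 Hox genes fell and Hoxb13 rose, where 41.7% of all genes fell, 39.1% rose and 80.7% passed. Arrays did not overlap for 13 of the 17, against 86.9% of all genes. This comparison shares its arrays with the ones above. The log2 difference was -4.54 for Hoxa5 (SE 0.12, adjusted p = 1.67e-11), -3.19 for Hoxc6 (SE 0.12, adjusted p = 2.58e-10) and -1.60 for Hoxb5 (SE 0.14, adjusted p = 3.42e-07). Of the 12, 5 had passed the filter through the feeder arrays alone, and Hoxb13 (adjusted p = 0.000661) had passed it through iPSC on feeder alone. Feeder cells did not detect Hoxb13, and no fold can be given for it. Hoxb7 passed without feeder array 1 (0.36, adjusted p = 0.0342) and Hoxb3 without feeder array 2 (-0.54, adjusted p = 0.0043). Median scaling, with the median of all genes at 0.27 and 4097 genes higher and 2257 lower in place of 3930 and 4190, gave Hoxb4 a difference of 0.59 (0.32 relative to that median, adjusted p = 0.0247), where it did not pass on quantile-normalized values (adjusted p = 0.998). It also called Hoxb7 higher on feeder, at 0.78 (0.51 relative to that median, adjusted p = 0.0054), while Hoxc4 (adjusted p = 0.0617) and Hoxc8 (adjusted p = 0.45) lost their calls.

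The position of iPSC on feeder between the other groups was read for the 10 Hox genes at least 1 log2 unit lower in feeder-free iPSC than feeder cells. The feeder share is the on-feeder minus the feeder-free signal, divided by the feeder minus the feeder-free signal, in percent, taken within a probe and given as mean ± SD over the 3 on-feeder arrays. It is arithmetic on group levels, and whether admixed feeder cells gave it was not tested. It was 0.77 ± 0.68% for Hoxa2, 3.02 ± 0.50% for Hoxa5 and 2.10 ± 1.05% for Hoxa7. The shares were 7.59 ± 2.39% for Hoxb2, 19.6 ± 5.57% for Hoxb5 and -2.34 ± 2.29% for Hoxb6. Hoxc6 gave 7.60 ± 0.83%, Hoxc9 2.50 ± 2.92%, Hoxc13 5.42 ± 8.39% and Hoxd11 7.55 ± 13.9%. Hoxb6 was lowest, and Hoxb5 was highest with 23.7%, 13.2% and 21.7% on the 3 arrays. Hoxa2 and Hoxb6 were undetected on all iPSC arrays, so their shares are differences between background levels. Hoxc13 and Hoxd11 were undetected on all feeder-free arrays and detected on only 1 on-feeder array each, so their shares are largely such differences too. The other 7 tested genes had iPSC and feeder levels too close for a share to be read.

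Among 228 probes specific to feeder cells, 4 of them Hox probes, the median share was 4.42%, with quartiles of 1.98% and 8.99%. Below Hoxa2 lay 12.7% of these probes, below Hoxa7 26.3%, below Hoxa5 39.0%, below Hoxb2 69.3%, below Hoxc6 69.3% and below Hoxb5 93.4%. Leaving out the Hox probes moved these percentages by at most 0.345 points. All these Hox shares but those of Hoxb5 and Hoxb6 therefore fell within the span from the 10th percentile, at 0.44%, to the 90th, at 15.2%. Over the 13 Hox genes lower in feeder-free iPSC the median share was 3.02%, and it was 3.30%, 5.36% and 0.60% on the single on-feeder arrays. Hoxb1, Hoxc4 and Hoxc8, which have no readable share, are among the 13.

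**Figure D3:**
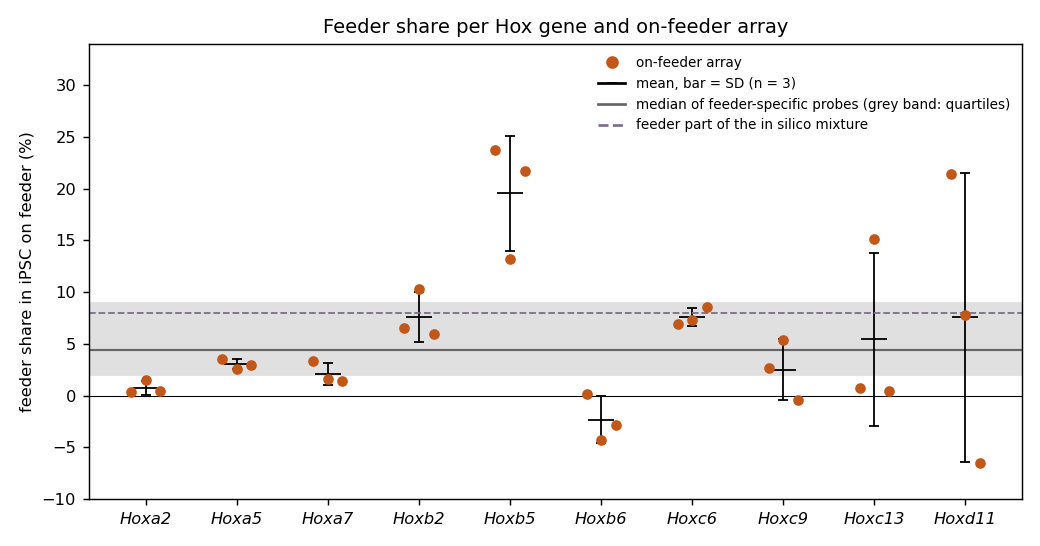
Feeder share in percent of the 10 Hox genes with a clear gap between feeder cells and feeder-free iPSC; orange points are the 3 on-feeder arrays, bars the mean and SD, the grey line and band the median and quartiles of 228 feeder-specific probes, and the dashed line the 8% of the in silico mixture. Hoxa2, Hoxa5, Hoxa7, Hoxb6 and Hoxc9 lie under the dashed line on all 3 arrays, and Hoxb5 lies above it on all 3. Shares are on quantile-normalized signal and the mixture was made before normalization, so the dashed line is a rough mark.

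The in silico mixture asks whether iPSC on feeder differ from feeder-free iPSC by more than an admixture of 8% feeder signal. It was rebuilt here from background-corrected signals of the same feeder-free and feeder arrays, so it is not independent of them, and it was fitted with the on-feeder arrays on its own. All 3 mixtures hold the same feeder mean, so SEs and p-values against the mixture leave out the spread between feeder arrays. Of 17 Hox genes, 6 differed from the mixture, 3 lower and 3 higher (35.3%), where 10.8% of all genes passed, 5.23% lower and 5.56% higher. The 3 lower ones were Hoxa2, Hoxa5 and Hoxa7, all the tested genes of Hoxa, and the 3 higher ones were Hoxb5, Hoxb7 and Hoxb13, all of Hoxb. The median feeder share of 228 feeder-specific probes was 4.42%. A share under the 8% of the mixture was thus usual among such probes and not particular to Hoxa. Shares were taken on quantile-normalized signal, whereas the mixture was made before normalization, so 8% is only a rough mark for a share. Hoxc6 had a share of 7.60%, for example, and yet did not lie below the mixture. Hoxa2 and Hoxb13 had passed the filter through feeder cells alone and iPSC on feeder alone. Arrays and mixtures did not overlap for 7 of the 17, against 33.8% of all genes.

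Hoxa5 had 7.26, 6.94 and 7.08 on feeder and 7.89, 8.12 and 8.29 in the mixtures, a difference of -1.01 (SE 0.13, adjusted p = 0.000942). Hoxa7 had 5.98, 5.66 and 5.60 on feeder and 6.17, 6.44 and 6.51 in the mixtures, a difference of -0.63 (SE 0.13, adjusted p = 0.0156). Hoxa2 had 4.45, 4.62 and 4.46 on feeder, undetected, and 5.02, 5.08 and 5.12 in the mixtures, which makes it at least 1.05-fold lower on feeder (adjusted p = 0.0055). In none of these 3 did an on-feeder array reach the lowest mixture.

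Hoxb5 had 5.88, 5.44 and 5.80 on feeder and 4.98, 4.93 and 4.94 in the mixtures (adjusted p = 0.0043). Hoxb13 had 5.25, 5.34 and 5.15 on feeder and 4.90, 4.91 and 4.81 in the mixtures (adjusted p = 0.0364). The feeder-free arrays behind these mixtures did not detect either gene, nor did feeder cells detect Hoxb13, so the sizes of both differences are not read. Hoxb7 differed by 0.48 (SE 0.09, adjusted p = 0.0120). All on-feeder arrays of these 3 genes lay above all mixtures. Hoxc6 at 0.19 (SE 0.11, adjusted p = 0.297) and Hoxb2 at 0.19 (SE 0.13, adjusted p = 0.351) overlapped with the mixtures and did not pass. The other Hoxa7 probe differed by -0.12 (adjusted p = 0.532 among 18144 probes).

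Of the 6 calls against the mixture, Hoxa5 alone remained under median scaling (-0.96, adjusted p = 0.0376), with 80 genes higher and 30 lower in place of 559 and 526. The fitted differences of the other 5 kept their sign there, at -0.56 for Hoxa2, -0.58 for Hoxa7, 0.79 for Hoxb5, 0.51 for Hoxb7 and 0.37 for Hoxb13 (adjusted p from 0.117 to 0.653). Without feeder-free array 2, 3 Hox genes passed, Hoxa7 (adjusted p = 0.0705), Hoxb7 (0.0658) and Hoxb13 (0.100) having lost their calls. Hoxa7 also lost it without feeder-free array 3 (0.0691) or on-feeder array 3 (0.0576), and Hoxb13 without any one of the 6 iPSC arrays (0.0555 to 0.128).

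**Figure D4:**
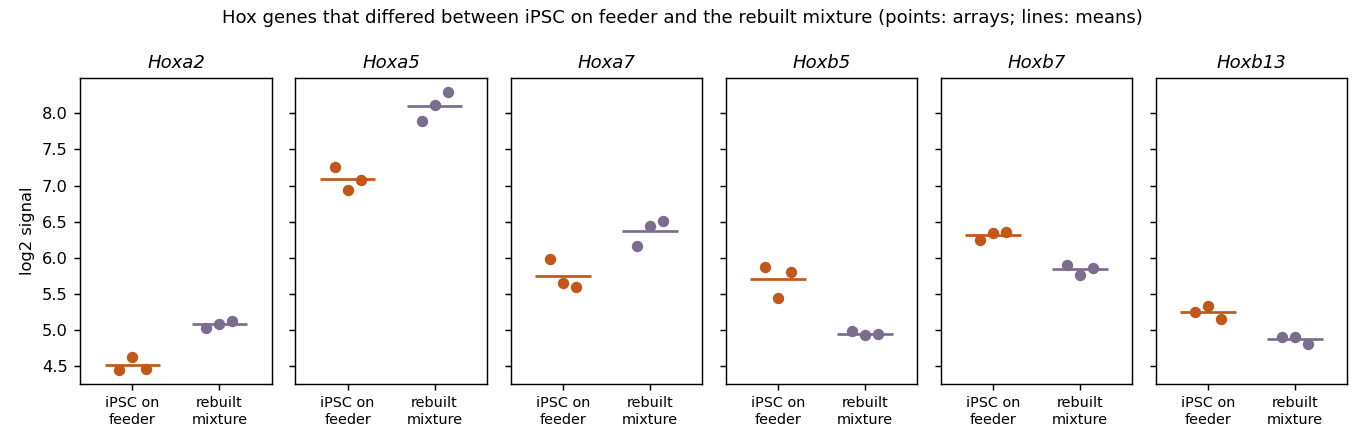
Log2 signal of the 6 Hox genes that differed between iPSC on feeder (left in each panel) and the rebuilt in silico mixture (right); points are arrays and lines are means of 3. Hoxa2, Hoxa5 and Hoxa7 lie below their mixtures on all 3 on-feeder arrays, and Hoxb5, Hoxb7 and Hoxb13 above.

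Genes that work with or act on the Hox clusters were read from the same fits. Their counts stand beside shares over all genes of 9.86% higher and 8.30% lower on feeder between the iPSC groups, and of 40.8% higher and 41.0% lower in feeder-free iPSC relative to feeder cells. Among cofactors of Hox proteins and related homeobox genes, 15 of 17 were on the array and 8 were tested, of which 1 rose and 1 fell on feeder relative to feeder-free iPSC. Meis1, a homeodomain partner that binds DNA together with Hox and Pbx proteins, averaged 6.83 on feeder, 6.01 feeder-free and 7.49 in feeder cells, and rose by 0.82 (SE 0.19, adjusted p = 0.0106). It lost its call without feeder-free array 2 (adjusted p = 0.0527) and at the mean of its probes (0.28, adjusted p = 0.0538). Pknox1, another such partner, fell by 0.33 on feeder (adjusted p = 0.0322), a call lost without any one of the 6 iPSC arrays (0.0550 to 0.0888). Relative to feeder cells, 2 of the 8 were higher in feeder-free iPSC and 2 lower. Meis1 was lower by -1.48 (SE 0.21, adjusted p = 3.16e-05). Cdx2, a ParaHox gene that acts on Hox genes in the embryo's tail end, was lower by -0.63 (SE 0.14, adjusted p = 0.0012), a call lost under median scaling (-0.04, adjusted p = 0.868). Gmnn, which binds Hox proteins and restrains DNA replication, and the partner Pbx3 were undetected in feeder cells and higher by at least 1.25-fold and 1.31-fold (adjusted p of 0.000118 and 0.0025). Both had passed the filter through iPSC arrays alone, so their direction was set by the filter. Pbx4 at 0.24 did not pass (adjusted p = 0.0975), but did under median scaling (0.87, adjusted p = 0.000809).

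Retinoic acid switches on anterior Hox genes in the embryo. Of 10 tested genes of its pathway, 7 were higher and 3 lower in feeder-free iPSC than feeder cells, where 40.8% and 41.0% of all genes were, and 1 rose and 1 fell on feeder relative to feeder-free iPSC. All of the 7 but the receptor Rarg were undetected in feeder cells and passed the filter through iPSC arrays alone. Their direction was thus set by the filter, and the count shows no tilt of the pathway. Stra6, a receptor for vitamin A carried in blood, was at least 6.11-fold higher in feeder-free iPSC than feeder cells (adjusted p = 9.16e-11), and fell by 0.68 on feeder (SE 0.11, adjusted p = 0.0013). Cyp26b1, an enzyme that breaks down retinoic acid, was lower in feeder-free iPSC than feeder cells by -3.02 (SE 0.11, adjusted p = 1.90e-10). The retinoid receptor Rxrb rose by 0.29 on feeder (adjusted p = 0.0458), a call lost without any one of the 8 arrays (0.0588 to 0.126) and at the mean of its probes (0.01, adjusted p = 0.940). Crabp2, Rara and Crabp1, which bind retinoic acid, were higher in feeder-free iPSC than feeder cells, where none was detected (at least 1.70-fold, 2.42-fold and 1.68-fold; adjusted p of 9.07e-06, 4.79e-06 and 5.97e-07).

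Chromatin regulators keep Hox clusters silent (Polycomb) or active (Trithorax). Of 15 tested, 9 were higher and 4 lower in feeder-free iPSC than feeder cells, where 81.8% of all genes passed, so the share of the list that passed is near that of all genes. Cbx7 differed by 3.98 (SE 0.11, adjusted p = 1.26e-11), Phc1 by 3.02, Eed by 2.65, Bmi1 by -2.92 and Cbx8 by -2.03, all of them Polycomb proteins. On feeder, Phc2 rose by 0.51 (SE 0.09, adjusted p = 0.0031) and Wdr5, part of the complexes that methylate histone H3 at active genes, fell by 0.39 (SE 0.10, adjusted p = 0.0180), and the other 13 genes did not pass. Wdr5 lost its call without feeder-free array 3 (adjusted p = 0.0564) or on-feeder array 1 (0.0756). Cbx7 just missed the threshold, at -0.30 on feeder (SE 0.10, adjusted p = 0.0501, limma), and stood at 0.073 with a replicate block. It passed without the filter (0.0421), at a score over 0.99 (0.0396), without background correction (0.0137), with an offset of 50 (0.0178) and at the mean of its probes (0.0427). Of 11 tested genes that flank the clusters, 0 rose and 0 fell on feeder by limma (0 higher and 3 lower at an unadjusted p under 0.05), and 5 were higher and 2 lower in feeder-free iPSC than feeder cells. The largest differences there were 1.37 for Hnrnpa1, which binds RNA in splicing, 1.09 for Snx10, a sorting nexin, 1.05 for Atp5g2, a subunit of ATP synthase, -1.03 for Smug1, a DNA repair glycosylase, and 0.99 for Lnpk, a protein of the endoplasmic reticulum (adjusted p from 2.22e-06 to 0.000418).

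Other positional transcription factors gave a further view of the same cells. Of 16 tested, 3 rose and 4 fell on feeder relative to feeder-free iPSC, where 18.2% of all genes passed. In feeder-free iPSC 6 were higher and 9 lower than in feeder cells, where 81.8% of all genes passed. Shox2, a limb homeobox gene, was undetected feeder-free and at least 1.90-fold higher on feeder (adjusted p = 6.28e-06). Its feeder share was 4.35%. Twist1, a mesenchymal regulator, rose by 0.83 (SE 0.12, adjusted p = 0.000714), with a share of 8.64%, and Irx5 by 0.55 (SE 0.10, adjusted p = 0.0021), with a share of 6.20%. Gata4, a regulator of endoderm and heart, fell by 1.26 on feeder (SE 0.18, adjusted p = 0.000588), and Hand1, En1 and Barx1 fell by 0.81, 0.48 and 0.50 (adjusted p of 0.000262, 0.0220 and 0.0043). En1 lost its call without feeder-free array 1 (adjusted p = 0.0556), feeder-free array 3 (0.0684) or on-feeder array 1 (0.0739). Relative to feeder cells, Shox2 was lower in feeder-free iPSC by at least 27.2-fold (adjusted p = 4.92e-12), Twist1 by -3.33 and Irx5 by -3.09, and Gata4 was higher by 3.79 (adjusted p of 3.96e-10, 9.21e-11 and 4.21e-09). Msx1 was lower in feeder-free iPSC than feeder cells by -3.81 (SE 0.12, adjusted p = 3.94e-11) and did not pass between the iPSC groups (0.29, adjusted p = 0.0794).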

How the data were processed

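The deposited non-normalized table held bead intensity per probe, per the file headers, beside a deposited detection score that rises with the signal and was read as 1 minus the detection p. Limma is named in the submitters' processing notes, with a role and version not given in the sources used here. The deposited feeder-free intensity columns were weighted means of arrays (91% or 92% feeder-free, the rest feeder). Each feeder-free array was therefore computed from its in silico mixture, by taking off 8% of the feeder mean and dividing by 92%. The mean of the 3 results gave the pooled columns with differences of at most 0.0471 signal units, and each correlated with its own detection score at Spearman 0.9965 to 0.9978. The mixtures' 3 detection columns were not used.

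R 4.3.3 with limma 3.58.1 was used. Background came off by normexp fitted to detection p-values, with an offset of 16, then the 8 arrays were quantile normalized and, starting from these deposited values, put on the log2 scale. A probe entered when at least 1 group had scores over 0.95 on all its arrays (18144 probes). The brightest probe stood for its gene (10058 genes), with symbols from the array's probe table updated through RefSeq. Comparisons were contrasts in 1 two-sided lmFit and eBayes fit with Benjamini-Hochberg adjustment and a threshold of 0.05. The rebuilt mixture and the on-feeder arrays had a fit of their own. The code was tested on simulated data. For "at least" folds, an undetected group was set, per array, at the higher of its own level and the lowest detected level. Feeder-specific probes had scores over 0.99 on both feeder arrays and were detected on no feeder-free array. The number of arrays limits the precision.

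Members and gene lists were chosen with earlier results of these data known. By the naming rule, values on every array are given for Hox genes that passed between the iPSC groups, that any iPSC array detected, or that were the brightest of their cluster in feeder cells; the other tested Hox genes are given too. Genes of other lists are named if they passed between the iPSC groups or had 1 of the 5 largest differences of their list between feeder-free iPSC and feeder cells. Alternatives were other filters, scaling, background corrections, probe rules, left-out arrays and a replicate block. A further table of values the authors normalized was not used, since its iPSC and mixture columns did not match the non-normalized signals. Python 3.11.15, pandas 2.3.3, numpy 2.4.6 and matplotlib 3.10.9 were used.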

Additional observations from a re-analysis of the deposited data

How the results depend on the processing

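Results on Hox genes and counts over all genes were recomputed under up to 16 other settings, and single genes under those that kept the gene and gave it 1 value. Hox genes called between iPSC on feeder and feeder-free iPSC numbered 4 under median scaling, without background correction and with an offset of 50, and 4 to 6 without single arrays, always higher on feeder; against the mixture they numbered 1 under median scaling and 3 to 6 without single arrays. A detection score over 0.99 left 8 called between feeder-free iPSC and feeder cells and 7 between iPSC on feeder and feeder cells, with fewer genes tested. All genes called between the iPSC groups numbered 399 under median scaling and 1127 to 2150 without single arrays, and against the mixture 110 and 395 to 1540. Counting every probe, 14525 probes passed between feeder-free iPSC and feeder cells and 14388 between iPSC on feeder and feeder cells.

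The median Hox difference between the iPSC groups was 0.0288 without the filter, 0.43 at a score over 0.99, 0.15 without background correction, 0.15 with an offset of 50, and 0.11 to 0.32 without single arrays. Between feeder-free iPSC and feeder cells it was -0.23, -2.86, -0.58 and -0.62 under those 4 settings and -0.63 under median scaling. Between iPSC on feeder and feeder cells it was -0.18, -2.14, -0.58 and -0.57, and -0.65 under median scaling. Against the mixture it was -0.009 without the filter, 0.19 at a score over 0.99, -0.0364 for single probes, -0.0097 for mean probes, and -0.0685 to 0.13 without single arrays, so its sign differed between settings. The cause of these shifts was not tested. Under median scaling Hoxb1 turned to 0.19 between feeder-free iPSC and feeder cells, and Hoxb4 turned to 0.59 between iPSC on feeder and feeder cells. Without the filter, 5 Hox genes detected on no array also passed in each comparison with feeder cells. The feeder share of Hox genes was 2.30% to 3.92% without single arrays, and filters, probe rules and the block give it no value of its own.

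Same-numbered iPSC arrays of the 2 cultures did not deviate together (r of 0.02, 0.16 and -0.20), so the numbers were not taken as pairs. A replicate block left 6 Hox genes called between the iPSC groups, 12 and 13 against feeder cells, and 5 against the mixture. Under it Hoxb13 lost its call between the iPSC groups (adjusted p = 0.063) and against the mixture (0.0607), and Hoxb1 between feeder-free iPSC and feeder cells (0.0671).

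For 32 genes of the other lists, the same settings were chosen after seeing the data. None turned direction across the threshold. Under median scaling Meis1, Pknox1, Stra6, Rxrb, Phc2, Wdr5, Irx5, En1 and Barx1 lost their calls between the iPSC groups, whereas Shox2, Twist1, Gata4 and Hand1 kept theirs.

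The 20 Hox genes undetected on every array lay at background, where low expression and none cannot be told apart.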
